A study of Mus musculus with 3 samples.

Results

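The transcripts described here are those of 10 mouse genes for peptide production and loading onto MHC class I: the ubiquitin-like modifier Ubd, the immunoproteasome subunits Psmb8, Psmb9 and Psmb10, the proteasome activator subunit Psme1, the peptide transporter subunits Tap1 and Tap2, the loading factor Tapbp, the class I light chain B2m and the class I transactivator Nlrc5. They were chosen by gene symbol, as every probe whose accession maps to 1 of these symbols. All 10 were found, with 11 probes, among 21743 genes and transcripts tested. Nlrc5 had 2 probes and each of the other 9 genes had 1.

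RANK ligand (RL) was given to cultures of mammary tumor cells of the MMTV-PyMT mouse model, in which the polyoma middle T oncogene is driven by a mammary promoter. By the methods, such cells came from tumor transplants with or without RANK and were plated on Matrigel, with RL added 24 h after plating. The sample titles and sources state neither the transplant nor the RANK genotype of these tumors. For each of 3 tumors, RNA of a culture kept with RL for 24 h and RNA of an untreated control culture were hybridized together on 1 Agilent array. The cultures were grown in the same medium with serum, cholera toxin, insulin and EGF, so those of a tumor differ by RL alone as labeled. On the arrays they also differ by dye. The labels give the RL dose as 1000 µg/ml, whereas the methods state a dose in µg/mL that is lower by orders of magnitude. Each condition of a tumor was a single culture, and the cultures can hold cells other than tumor cells. Cy3 marked the RL culture of tumors 1 and 3, whereas Cy5 marked that of tumor 2, so dye order and tumor 2 cannot be told apart. The methods speak of dye swaps for every sample, but the labels give 1 array per tumor. The paper names a different series for its arrays, so that these belong to the experiment by their labels alone. A single slide carried the 3 arrays. Across 21721 genes, which are not independent replicates, the log2 ratios of RL over control had a Pearson's r of 0.452 between tumors 1 and 3. It was -0.11 both between tumors 1 and 2 and between tumors 2 and 3.

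Proteasomes cut proteins into peptides, and interferon-γ or inflammatory signals replace their constitutive catalytic subunits with the immunoproteasome subunits, which changes the peptides made. TAP carries peptides into the endoplasmic reticulum, where tapasin helps to load them onto class I heavy chains paired with β2-microglobulin. Ubd, also called FAT10, is a modifier that targets proteins to the proteasome and is induced by TNF and interferon-γ, and RL signals through RANK to NF-κB.

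Ubd was the only gene of the array past an adjusted p of 0.05 by limma as higher with RL, and it was higher on all 3 arrays. The filter kept it through its RL channels alone, since its control spot in tumor 1 was not above background, and the filter on all 6 channels left it without a value. Its call was lost without a filter (adjusted p = 0.0690 from limma), with median centering (1), without pairing by tumor (1), with the scanner's processed signals (0.515) or log ratios (0.475) and without tumor 3 (0.0731). Of the 10 genes, 1 passed in this direction, against 0.00460% of all genes tested, and 0 passed as lower, against 0.0230%, with 0 lower at an unadjusted p under 0.05, against 3.55%. The genes of all those tested that limma called lower were Lalba, Wap, Foxi1, Lrg1 and Csn1s1, named after their values were seen. Without tumor 2, limma called 494 of 21743 genes higher, 5 of the 10 among them, but the arrays left have the same dye order. Without tumor 3 it called 0 genes higher, and 753 genes in either direction had an unadjusted p under 0.05. The mean ratio was above 0 for all 10 genes, but for 7 with median centering in place of loess. On all 3 arrays 8 were higher with RL, against 14.2% of all genes, or 2 with median centering, against 3.66%. None of the 10 was lower on all 3 arrays, against 13.3%. At an unadjusted p under 0.05, 7 were higher, against 3.61%. The median log2 change of the 10 genes was 0.24, and it was -0.0005 over all genes tested. In tumors 1, 2 and 3 the median of the 10 genes was 0.39, 0.15 and 0.19. These shares and medians describe genes that were chosen with earlier results of these data known.

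**Figure D1:**
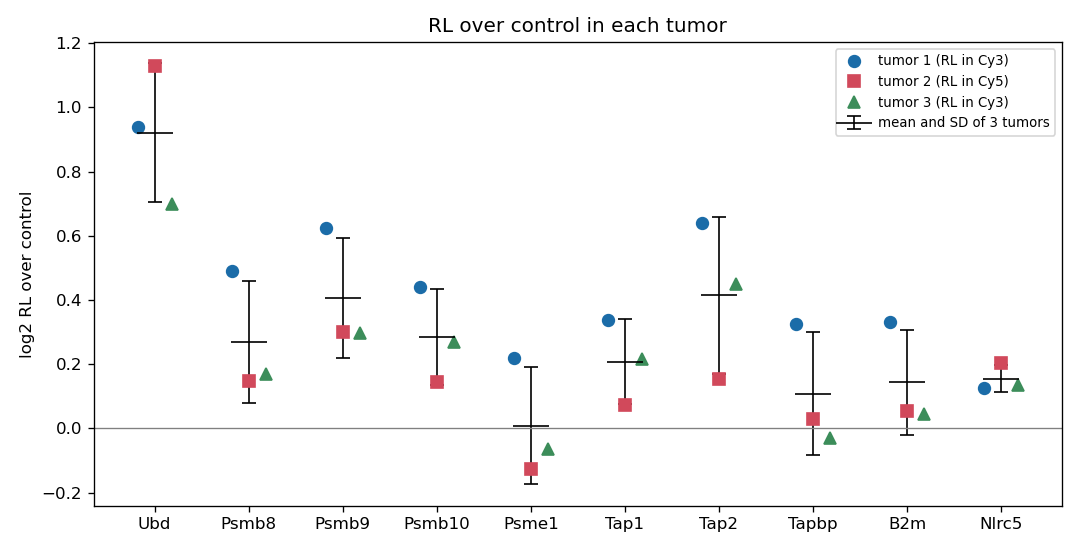
Log2 ratio of RL over control (vertical axis) for each of the 10 genes in tumors 1, 2 and 3, with the mean and SD of the 3 tumors in black. Ubd lies between 0.70 and 1.13, its value in tumor 1 resting on a control spot not above background, and Psme1 lies around 0.

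Ubd encodes a modifier with ubiquitin-like domains. Its promoter is shown because Ubd is the gene past the threshold. The 250 bases before its start in RefSeq (GRCm38.p6, chr17:37193642-37193891, plus strand) are printed 5′ to 3′, with the match to the kappaB consensus in capitals.

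Ubd: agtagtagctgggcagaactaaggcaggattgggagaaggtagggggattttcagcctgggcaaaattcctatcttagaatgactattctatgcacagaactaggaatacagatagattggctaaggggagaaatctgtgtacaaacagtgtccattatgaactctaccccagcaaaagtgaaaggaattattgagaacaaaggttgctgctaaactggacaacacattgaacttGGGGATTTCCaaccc

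The match begins 15 bases before the start of the gene. In windows of 300 bases, 250 before and 50 after the start, the kappaB consensus matched in 8.46% of 32851 promoters, read on both strands. A match is a description of letters, and binding was not measured.

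The normalized log2 intensity of Ubd in the control cultures of tumors 1, 2 and 3 was 5.88, 6.45 and 7.15. With RL it was 6.81, 7.57 and 7.85 in the same tumors. Each RL culture was above the control culture of its own tumor, while the ranges of the 2 conditions overlapped across tumors. As read by the scanner, the median intensity of the spot was 70 with RL and 73 in control in tumor 1, over local backgrounds of 35 and 74. In tumor 2 it was 236.5 with RL and 42.5 in control, over backgrounds of 73 and 38, and in tumor 3 it was 164 and 189, over 40 and 75. The spot was well above background with RL on all 3 arrays, and in control on 2 of 3, the exception being tumor 1. The log2 ratio was 0.94, 1.13 and 0.70 in tumors 1, 2 and 3. The mean was 0.92 ± 0.22 (SD, n = 3 tumors), with an adjusted p of 0.0164 from limma, and both include the ratio of tumor 1, taken over a control spot not above background, for which the scanner's ratio was 3.33. The spot was dim and its mean ratio depended on how background was handled. The scanner's ratio lay furthest from the one given here in tumor 1. The size of the change is thus given for these settings only. The log2 change was 1.84 with a normexp offset of 1 (adjusted p = 0.0336 from limma) and 2.25 with the scanner's processed signals (0.515). In the deposited normalized table it was 1.77, 1.87 and 0.85 in tumors 1, 2 and 3 (0.0223). Over all alternatives the adjusted p ranged from 4.43e-08 with a dye term to 1 without pairing by tumor, beside a pfp of 0 by rank product. Without tumor 3 the adjusted p was 0.0731.

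**Figure D2:**
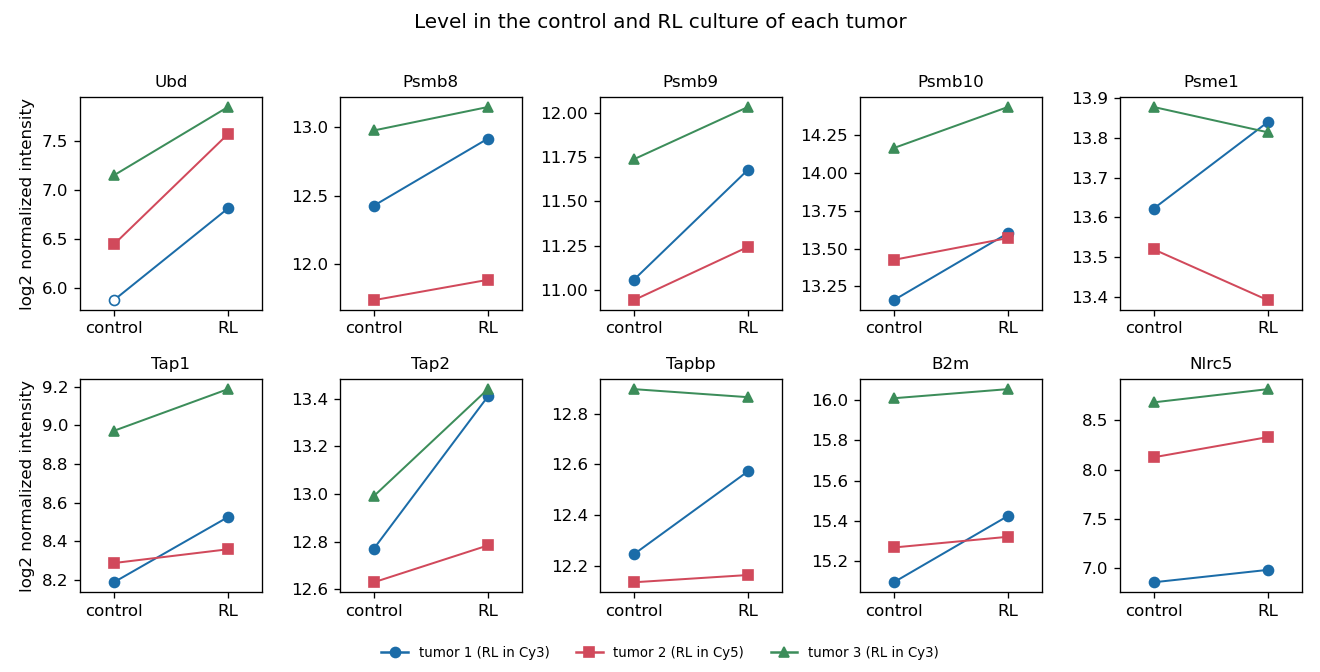
Normalized log2 intensity (vertical axis) of each gene in the control and RL culture of each tumor, joined by a line per tumor. The open circle marks the control channel of Ubd in tumor 1, which was not well above background. Lines slope up in every tumor except for Psme1 in tumors 2 and 3 and Tapbp in tumor 3, whereas with median centering 2 of the 10 genes were higher in every tumor.

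The immunoproteasome has the catalytic subunits Psmb9 (β1i), Psmb10 (β2i) and Psmb8 (β5i). The level of Psmb9 in control cultures was 11.06, 10.94 and 11.74 in tumors 1, 2 and 3, and with RL it was 11.68, 11.24 and 12.04. All 3 RL cultures were higher than their controls, by 0.62, 0.30 and 0.30, with overlap of the conditions across tumors. The mean log2 change of Psmb9 was 0.41 ± 0.19 (SD, n = 3 tumors; 95% interval 0.22 to 0.60; adjusted p = 0.243 from limma). The level of Psmb10 was 13.16, 13.43 and 14.16 in control and 13.60, 13.57 and 14.43 with RL. Psmb10 was thus higher with RL in every tumor, by 0.44, 0.14 and 0.27, with a mean of 0.28 ± 0.15 (adjusted p = 0.430 from limma). The level of Psmb8 was 12.43, 11.74 and 12.98 in control and 12.92, 11.89 and 13.15 with RL. Psmb8 was also higher in every tumor, by 0.49, 0.15 and 0.17, with a mean of 0.27 ± 0.19 (adjusted p = 0.514 from limma). None of the 3 subunits passed the threshold. With median centering the means of Psmb9, Psmb10 and Psmb8 were 0.28, 0.12 and 0.11, and without tumor 1 they were 0.30, 0.21 and 0.16. With a dye term, Psmb9 passed (log2 change 0.38, adjusted p = 0.0119 from limma), where the residual comes from tumors 1 and 3 alone. Over its alternatives the adjusted p ranged from 0.00208 to 1. Without tumor 2, Psmb8, Psmb9 and Psmb10 all passed, with log2 changes of 0.33, 0.46 and 0.36 and adjusted p of 0.0284, 0.00208 and 0.0122 from limma, but the arrays left have the same dye order.

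In the promoter of Psmb8, the gamma-activated site, written TTCNNNGAA, matched on both strands at the same 9 bases, since the motif as written reads the same on either strand. The motif was held by 8.3% of the promoters in the table. The 250 bases before the start of Psmb8 (GRCm38.p6, chr17:34197945-34198194, plus strand) are given with the match in capitals, 97 bases before the start.

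Psmb8: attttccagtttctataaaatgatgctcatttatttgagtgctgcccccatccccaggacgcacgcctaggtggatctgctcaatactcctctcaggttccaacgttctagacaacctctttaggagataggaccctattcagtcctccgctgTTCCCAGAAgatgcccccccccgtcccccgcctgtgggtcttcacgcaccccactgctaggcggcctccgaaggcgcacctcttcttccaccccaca

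Constitutive proteasomes carry Psmb6, Psmb7 and Psmb5 in the places of Psmb9, Psmb10 and Psmb8. Psmb6 had log2 ratios of -0.25, 0.23 and -0.22 in tumors 1, 2 and 3, Psmb7 of 0.22, -0.21 and 0.11, and Psmb5 of -0.14, 0.34 and -0.08. The signs of all 3 were turned in tumor 2, the array with the other dye order, and their means were -0.08, 0.04 and 0.04, with a median of 0.04 (adjusted p of at least 0.909 from limma). This median was -0.15 with median centering and -0.11 without tumor 2. Within an array, Psmb9 exceeded Psmb6 by 0.87, 0.07 and 0.52 on the log2 scale, and Psmb10 exceeded Psmb7 by 0.23, 0.36 and 0.16. For Psmb8 over Psmb5 the difference was 0.63, -0.19 and 0.25, so tumor 2 went the other way. The mean of the 3 pairs was 0.57, 0.08 and 0.31 in the 3 tumors, or 0.32 ± 0.25 (SD, n = 3 tumors). The smallest two-sided p of an exact permutation of signs with 3 tumors is 0.25, so this difference, chosen after values were seen, was given as values. A difference within an array does not show that the constitutive subunits were without change.

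**Figure D3:**
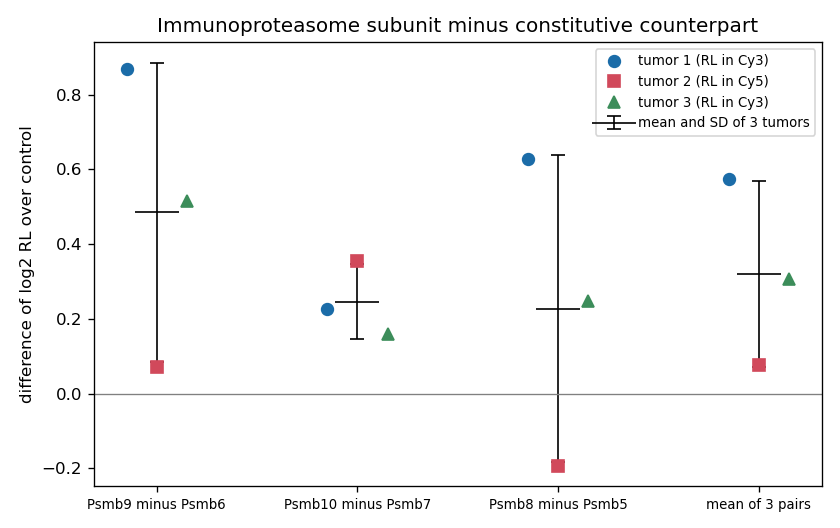
Difference between the log2 RL over control of each immunoproteasome subunit and that of its constitutive counterpart (vertical axis), by tumor, with mean and SD in black. Of the 9 differences, 8 lie above 0, and that of Psmb8 and Psmb5 in tumor 2 is -0.19.

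Psme1 encodes the α subunit of the PA28 activator, which opens the proteasome for peptide release. Its level in control was 13.62, 13.52 and 13.88 in tumors 1, 2 and 3, and with RL it was 13.84, 13.39 and 13.81. Psme1 was higher with RL in tumor 1, by 0.22, and lower in tumors 2 and 3, by -0.13 and -0.06. Its 10 spots per array had an SD of 0.05, 0.04 and 0.03, outliers included. The ratios leave out 1, 2 and 2 outlier spots. The mean was 0.01 ± 0.18 (SD, n = 3 tumors; adjusted p = 0.987 from limma), with a 95% interval from -0.18 to 0.20, and the sign of this mean changed with the processing. Its partner Psme2 had no matched probe.

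Tap1 and Tap2 form the peptide transporter. The level of Tap2 was 12.77, 12.63 and 12.99 in control and 13.41, 12.78 and 13.44 with RL. Tap2 was higher in every tumor, by 0.64, 0.15 and 0.45, and least in tumor 2. The mean was 0.41 ± 0.24 (SD, n = 3 tumors; 95% interval 0.20 to 0.63; adjusted p = 0.317 from limma). It passed when a dye term was added (0.35, adjusted p = 0.0166 from limma), where the residual comes from tumors 1 and 3 alone. Over its alternatives the adjusted p ranged from 0.000293 to 1. The lowest came without tumor 2, at a log2 change of 0.54, where the arrays left have the same dye order. The level of Tap1 was 8.19, 8.29 and 8.97 in control and 8.53, 8.36 and 9.19 with RL. Tap1 was higher by 0.34, 0.07 and 0.22, and its mean was 0.21 ± 0.13 (adjusted p = 0.609 from limma). With median centering the means of Tap1 and Tap2 were 0.11 and 0.26, and without tumor 1 they were 0.14 and 0.30. Each array held 10 spots of Tap1, with an SD of 0.07, 0.09 and 0.07 in tumors 1, 2 and 3.

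Tap1 and Psmb9 lie head to head, and their promoter windows share 275 bases. The 225 bases between their starts (GRCm38.p6, chr17:34187331-34187555, plus strand, toward Tap1) are shown because both genes were higher with RL on all 3 arrays. None of the 3 motifs searched matched in either window.

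Psmb9-Tap1: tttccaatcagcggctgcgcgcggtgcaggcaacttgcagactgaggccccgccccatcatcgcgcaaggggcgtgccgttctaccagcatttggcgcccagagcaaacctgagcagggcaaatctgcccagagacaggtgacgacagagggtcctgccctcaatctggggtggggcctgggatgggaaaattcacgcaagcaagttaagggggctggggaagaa

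Tapbp encodes tapasin, which bridges TAP and class I molecules. Its level was 12.25, 12.14 and 12.90 in control and 12.57, 12.16 and 12.86 with RL. Tapbp was higher by 0.33 in tumor 1 and lay near 0 in tumors 2 and 3, at 0.03 and -0.03. The mean was 0.11 ± 0.19 (SD, n = 3 tumors; adjusted p = 0.852 from limma), and it was below 0 with median centering. B2m, the light chain of every class I molecule, had a level of 15.09, 15.27 and 16.01 in control and of 15.42, 15.32 and 16.06 with RL. B2m was higher by 0.33 in tumor 1 and by 0.05 in both other tumors, with a mean of 0.14 ± 0.16 (adjusted p = 0.777 from limma) that was also below 0 with median centering. No spot of these 10 genes was saturated.

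The interferon-stimulated response element, written GAAANNGAAA, matched in the promoter of B2m, and so did the kappaB consensus, on the opposite strand. The first motif was held by 3.44% of the promoters. The 250 bases before the start of B2m (GRCm38.p6, chr2:122147437-122147686, plus strand) carry the matches 139 and 126 bases before the start, in capitals.

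B2m: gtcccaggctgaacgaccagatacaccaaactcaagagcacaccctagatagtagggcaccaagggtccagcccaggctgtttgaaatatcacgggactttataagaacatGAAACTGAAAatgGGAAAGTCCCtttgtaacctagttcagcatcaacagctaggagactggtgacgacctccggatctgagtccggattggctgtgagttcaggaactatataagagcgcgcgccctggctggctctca

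In all, 8 of the 10 genes had a promoter in the table, and 4 held at least 1 of the 3 motifs, against 18.9% of all promoters in it. The fourth beside Ubd, Psmb8 and B2m was Psme1, with a response element after its start.

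Nlrc5 encodes the transactivator of class I genes. The level of the probe that stood for the gene was 6.85, 8.12 and 8.68 in control and 6.98, 8.33 and 8.82 with RL. This probe was higher by 0.13, 0.20 and 0.13 in tumors 1, 2 and 3, with a mean of 0.16 ± 0.04 (SD, n = 3 tumors; adjusted p = 0.696 from limma). Its spot was dim, at 76 over a background of 36 with RL in tumor 1, and the scanner's ratios were 0.43, 0.20 and 0.25, with a mean of 0.29. The other probe gave 0.11, -0.0003 and 0.14, and its control channel in tumor 1 was not well above background. The probes thus differed in tumor 2 under these settings, whereas the scanner's ratios of the other probe were 0.46, 0.13 and 0.38. In tumor 2 the spot of that probe was at 89 over a background of 69 with RL and at 35 over 32 in control.

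In order of mean change, Ubd came first, then Tap2, Psmb9, Psmb10, Psmb8, Tap1, Nlrc5, B2m, Tapbp and Psme1. From Tap2 on, every pair of neighbors in this order had overlapping values. Of the 10 genes, 8 had their largest ratio in tumor 1, against 31.6% of all 21721 genes with a value on every array. Ubd and Nlrc5, whose spots were dim, had it in tumor 2 here and in the deposited table, and in tumor 1 by the scanner's ratios. Their order of tumors thus depended on the processing, and background was not set apart from normalization. In control cultures, labeled with Cy3 in tumor 2 only, the level of all 10 genes was highest in tumor 3, against 27.7% of all genes. The summed intensity of the tested interferon-stimulated genes in control was 69300, 33500 and 143000 in tumors 1, 2 and 3, and was also highest in tumor 3. So were the sums of the epithelial markers, at 343000, 271000 and 470000, and of the fibroblast markers, at 9430, 4190 and 18300. The myeloid markers, at 25700, 15000 and 16900, and the leukocyte markers, at 2120, 1860 and 1900, were highest in tumor 1, and the endothelial markers, at 2090, 2120 and 1840, were lowest in tumor 3. Their part in the levels of the 10 genes was not tested. With a dye term added, limma called Ubd, Psmb9 and Tap2 higher, 3 of the 10 genes, against 0.455% of all genes, with 1 residual degree of freedom. It comes from tumors 1 and 3, since tumor 2 alone has the other dye order. A rank product of the 3 arrays called only Ubd, against 0.166% of all genes. With median centering in place of loess, 2 of the 10 genes were higher on all 3 arrays, and the means of Psme1, Tapbp and B2m were below 0.

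**Figure D4:**
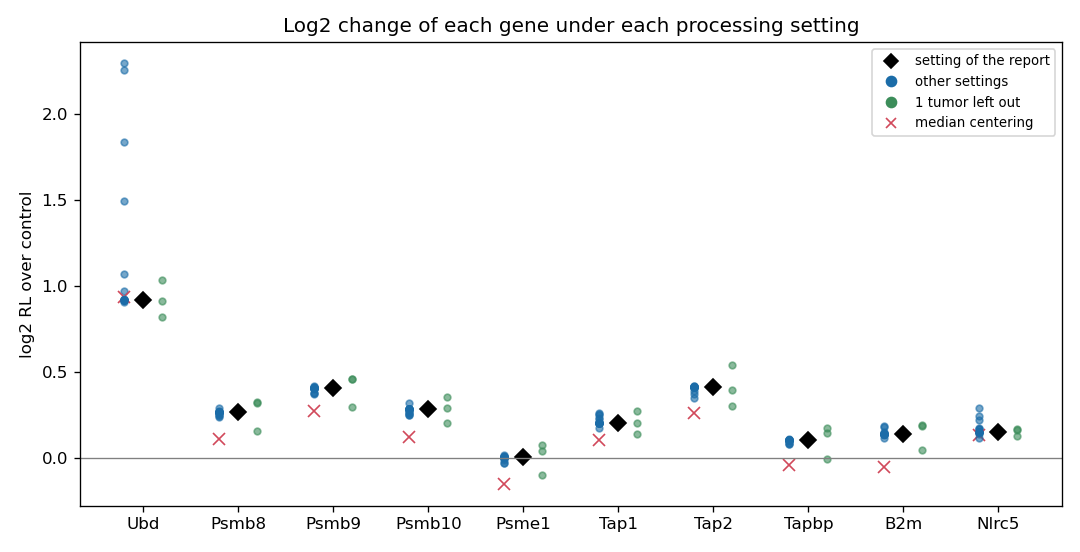
Log2 RL over control (vertical axis) of each gene under the setting of the report, the other settings, median centering and with 1 tumor left out. Ubd ranges from 0.82 to 2.29, and Psme1, Tapbp and B2m fall below 0 in at least 1 setting.

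Of 166 genes tested in the other lists, 0 passed the adjusted p of 0.05 by limma. Before adjustment, 13 of them had a p under 0.05 as higher and 5 as lower, while 4 passed with a dye term and 2 by rank product. Over all genes tested, the shares before adjustment were 3.61% and 3.55%. As higher, 0.455% of all genes passed with a dye term and 0.166% by rank product. Of the other subunits of the 20S core, 11 of 13 were tested, with a median log2 change of 0.02 and values up to 0.13 for Psma5 and 0.11 for Psma3. The 21 subunits of the 19S particle had a median of 0.03, led by Psmd10 at 0.23, with 0.10 for Psmd7. Among the other activators and assembly factors, 8 of 9 were tested, with a median of 0.03. Psme3 of this list had ratios of -0.52, 0.63 and -0.63, which follow the dye order, and Psmg1 had a mean of 0.12. Other peptide loading and trimming genes, 8 of 8 tested, had a median of -0.001, between -0.12 for the chaperone Calr and 0.26 for the tapasin-related Tapbpl. Calr had 0.17, -0.37 and -0.18 in tumors 1, 2 and 3, and lay between -0.27 and -0.003 with a tumor left out. The class I heavy chains, 13 of 15 tested, had a median of 0.07, with 0.13 for H2-K1 and -0.21 for Mr1. With a tumor left out this median lay between 0.005 and 0.094, and H2-K1 between 0.060 and 0.244. Heavy chain genes are alike in sequence, so a probe may read several of them.

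Of the transcription factors of class I and immunoproteasome genes, 15 of 17 were tested and the median was 0.04. Nfkb2 and Relb, the non-canonical NF-κB subunits, had the largest means, 0.62 and 0.55, with 1.25 and 1.15 in tumor 1, and were at 0.31 and 0.25 without it. At an unadjusted p under 0.05 from limma, 5 of the 15 were higher, against 3.61% of all genes, and 0 were lower, against 3.55%. These 5 were Nfkb2, Relb, Rela, Irf1 and Irf2. On all 3 arrays 6 of the 15 were higher, against 14.2%, and 1 was lower, against 13.3%. Of the interferons and receptors, 8 of 12 were tested, with a median of 0.09, and Ifngr1 and Ifngr2 were at 0.41 and 0.32. In tumors 1, 2 and 3 Ifngr1 had 0.73, 0.22 and 0.27 and Ifngr2 0.62, 0.27 and 0.06, and without tumor 1 their means were 0.25 and 0.16. Ifng, Ifnb1 and Ifna4 were not well above background in any channel. The interferon-stimulated genes, 25 of 28 tested, had a median of 0.05, from -0.16 for Iigp1 to 0.50 for Cxcl10 (adjusted p = 0.0763 from limma). Cxcl10 came past the threshold in 6 of 20 alternatives, with log2 changes from 0.46 to 1.13 over all of them. With a tumor left out the median lay between 0.017 and 0.066, and Iigp1 between -0.210 and -0.065. Of the genes for Ubd conjugation and binding, all 6 were tested, with a median of -0.04, from -0.20 for Sqstm1 to 0.18 for Ube2z. Ubiquitin and the other ubiquitin-like modifiers, 16 of 16 tested, also had a median of -0.04, with -0.23 for Ubb.

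**Figure D5:**
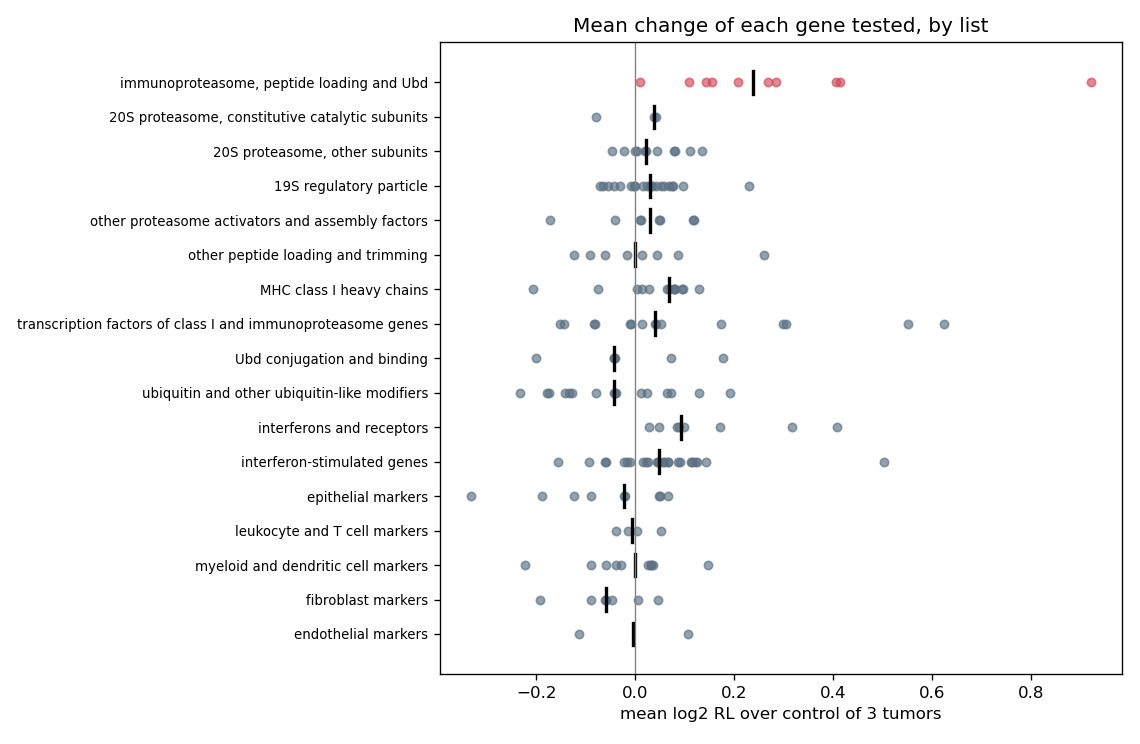
Mean log2 RL over control of 3 tumors (horizontal axis) for each tested gene, by list, with the list's median as a black bar. The median of the 10 genes described here is 0.24, and those of the other lists lie between -0.06 and 0.09.

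All 9 epithelial markers were tested in these cultures, with a median log2 change of -0.02 and no gene past the threshold. By tumor this median was 0.15, -0.18 and -0.07, in the order of the medians of the 10 genes described here, 0.39, 0.15 and 0.19. In tumor 1, 8 of the 9 markers were above 0. Krt18, the exception, had -0.72, 0.42 and -0.70 in tumors 1, 2 and 3, a mean of -0.33, and Krt14 had 0.05, -0.14 and -0.47, a mean of -0.19. Without tumor 2 Krt18 was at -0.71 and past the threshold, but the arrays left have the same dye order. With a dye term Krt18 was at -0.14 (adjusted p = 0.568 from limma). With a tumor left out Krt14 lay between -0.31 and -0.05. Of 8 leukocyte and T cell markers 4 were tested, with a median of -0.006, a mean of 0.05 for Ptprc and of -0.04 for Cd4, and Cd3d and Cd8a were not well above background in any channel. Of 12 myeloid and dendritic cell markers 10 were tested, with a median of -0.001, -0.22 for Cd68 and 0.15 for Cd14. The 7 fibroblast markers had a median of -0.06, with -0.19 for Pdgfra and -0.09 for Col3a1. By tumor their median was -0.29, 0.16 and -0.05, and all 7 were below 0 in tumor 1, where the median of the 10 genes described here was largest. With a tumor left out the median was between -0.17 and 0.04 for the fibroblast markers and between -0.12 and 0.05 for the epithelial ones. Pdgfra then lay between -0.266 and -0.098. Whether the shares of epithelial cells and fibroblasts bear on the 10 genes was not tested. Of 4 endothelial markers 2 were tested, Pecam1 at -0.11 and Kdr at 0.11, with a median of -0.004. With a tumor left out Pecam1 lay between -0.245 and -0.018, and Kdr between 0.052 and 0.195. In these bulk cultures, a change in the share of a cell type and a change in RNA per cell cannot be told apart.

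Over 14033 other named genes with a value on all 3 arrays, likeness was measured as the Euclidean distance between the 3 log2 ratios. The genes most like Ubd were Fcgbp at a distance of 0.49, Bace2 at 0.53, Adamts8 at 0.56, Armcx4 at 0.60 and Spns3 at 0.74. These distances use the ratio of Ubd in tumor 1, taken over a control spot not above background. That ratio was 0.94 here, 1.77 in the deposited table and 3.33 by the scanner. The genes nearest to Ubd and their order are thus given for these settings only. Fcgbp had ratios of 1.16, 0.70 and 0.59. The genes most like Psmb9 were Il18r1 at a distance of 0.07, Rnd1 at 0.08, Mapk11 at 0.10, Tjp3 at 0.11 and St8sia4 at 0.11. By mean ratio Ubd ranked 2 from the highest of all genes tested and Psmb9 ranked 57. The sizes of their distances are thus not compared. Il18r1 had ratios of 0.56, 0.33 and 0.31, near the 0.62, 0.30 and 0.30 of Psmb9.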

How the data were processed

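The 10 genes and the gene lists were chosen with earlier results of these data known. The authors read the arrays with Agilent Feature Extraction 10.7.3.1, and the deposited median intensity of each spot and of its local background was used. The scanner's log10 ratios, also deposited, divide the processed intensity of Cy5 by that of Cy3 and are set to 0 in 20.9% to 22.6% of the spots. The authors' deposited table of normalized log2 ratios states neither direction nor scale in the file, while the methods describe log2 of a condition over its control. Set against the scanner values of the same spots, all 3 of its columns ran as Cy5 over Cy3, with a Pearson's r of 0.898, 0.862 and 0.889, slopes of 0.742, 0.683 and 0.732 and, being centered near 0, medians of 0.002, -0.001 and 0.0007 in tumors 1, 2 and 3. They were turned to RL over control by the dyes in the labels.

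In R 4.3.3 with limma 3.58.1, intensities were corrected with normexp (offset 50, all spots), control spots were dropped, and ratios were normalized by intensity loess (span 0.3), loess on row and column (span 0.1, degree 1) and Aquantile. The offset compresses ratios of dim spots. Outlier spots (204, 195 and 223) were left out and spots of a probe averaged. A probe counted as above background in a channel if no more of its spots were dim than bright, and was kept if it did so on every array for RL or for control. The brightest such probe stood for a gene. Of 55681 probes, 28026 were named through RefSeq (GRCm38.p6). The ratio, which pairs the cultures of a tumor by the labels, was fitted with lmFit and eBayes over all genes, with Benjamini-Hochberg adjustment. A 95% interval uses the moderated SE. The number of arrays limits the precision.

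Named besides the 10 genes were Psmb5, Psmb6 and Psmb7, the genes of each list past the threshold or otherwise the 2 with the largest absolute mean, and the 5 genes nearest to Ubd and to Psmb9. One gene that this rule names is not reported here. The 5 lower genes, Rela, Irf1 and Irf2 fall outside this rule and were named after their values were seen. Promoters were searched with Python 3.11.15. The differences between subunit pairs and the comparison of control levels between tumors were chosen after values were seen. Degree 2 of the spatial loess was added as an alternative after seeing the data. The alternatives were another test (rank product with 1000 permutations, a dye term, an intensity trend, robust moderation, no pairing), background, normalization, probe filter, outlier spots, probes of a gene, the deposited table, and each tumor left out. The programs were tested on simulated data.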

Additional observations from a re-analysis of the deposited data

How the results depend on the processing

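The count of genes past the threshold, 1 higher and 5 lower, moved with most settings. Rank product gave 36 and 51, a dye term 99 and 130, an intensity trend in eBayes 12 and 28, its robust form 7 and 12, and no background correction 6 and 12. It was 0 and 0 with no replicate block (the 6 channels not paired by tumor), with the scanner's processed signals, with the scanner's log ratios and with median centering, where at an unadjusted p under 0.05 limma gave 64, 1632, 1661 and 54 genes. With dim probes kept it was 0 and 3, and the count of higher genes was 2 with a normexp offset of 1 and with the deposited table, and 0 with the filter on all 6 channels. With each tumor left out, 0 to 494 genes were higher and 2 to 793 lower. The highest counts came without tumor 2, where both arrays left have the same dye order. The cause was not tested.

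Of the 10 genes, 1 was past the threshold, and 3 with a dye term. None passed with no replicate block, the processed signals, the scanner's log ratios, median centering, no filter, or the filter on all 6 channels, which left Ubd out. With each tumor left out the count was 0 to 5. The 5 came without tumor 2, where 494 of 21743 genes tested were called higher. The log2 change of Ubd lost its call with no replicate block (0.92, adjusted p = 1), the processed signals (2.25), the scanner's log ratios (2.29), median centering (0.93) and no filter (0.92), and was 0.82 to 1.03 with each tumor left out. The number of genes higher on all arrays was 2 with median centering, 7 with the filter on all 6 channels and 8 to 9 with a tumor left out, where 22.4% to 30.2% of all genes were higher on both arrays, and the number lower was 0 to 1. The median of the 10 genes lay between 0.12 and 0.30 and the mean difference of subunit pairs between 0.19 and 0.44 over all alternatives.

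Signs changed for values near 0 and for some further from it. The latter included Psme3, Cd14, B2m and H2-K1, at -0.17, 0.15, 0.14 and 0.13 under the setting of the report. With a dye term, Psme1 was at -0.025, Psmb7 at -0.024 and Psme3 at 0.030. With processed signals Psme1 was at -0.026 and Psmb6 at 0.0047, and with the scanner's log ratios at -0.011 and 0.0043. With median centering, Psme1 was at -0.15, Tapbp at -0.037, B2m at -0.047, Psmb5 at -0.15, Psmb7 at -0.097, Psma5 at -0.025, Psma3 at -0.065, Psmd7 at -0.026, Psmg1 at -0.023, H2-K1 at -0.080, Cd14 at -0.031 and Kdr at -0.020. There the medians were -0.15 for the constitutive catalytic subunits (-0.0015 with a dye term, -0.11 to 0.0051 with a tumor left out), -0.12 for the other 20S and the 19S subunits, -0.11 for activators and assembly factors, -0.097 for heavy chains, -0.063 for transcription factors and -0.086 for interferon-stimulated genes, with -0.077 over all genes. With a tumor left out, the lowest and highest values were -0.096 and 0.077 for Psme1, -0.0015 and 0.18 for Tapbp, -0.23 and 0.0051 for Psmb6, -0.050 and 0.16 for Psmb7, -0.11 and 0.13 for Psmb5, -0.023 and 0.25 for Psmd7, -0.57 and 0.058 for Psme3, -0.025 and 0.096 for Ptprc, -0.066 and 0.0014 for Cd4, -0.062 and 0.31 for Cd14, and -0.22 and 0.028 for Col3a1. The medians of epithelial, fibroblast, leukocyte and endothelial markers and of other loading genes also turned sign with a tumor left out, at -0.12 to 0.050, -0.17 to 0.040, -0.025 to 0.0074, -0.025 to 0.017 and -0.025 to 0.034. Of 189 values of the other 9 genes, 175 kept sign and side of the threshold, 6 came past it and 8 changed sign. Of 901 values of 43 other genes of the naming rule, 825, 53 and 23 did so. A spatial loess of degree 2, added after seeing the data, changed no call of the 10 genes. Signal over background limits the values of Ubd and Nlrc5.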
